A study of Homo sapiens with 32 samples.

Results

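SNAI1, SNAI2, ZEB1, ZEB2, TWIST1 and TWIST2 encode the transcription factors most often named as drivers of epithelial-mesenchymal transition (EMT). These 6 genes were found in the table by their Ensembl identifiers and make up 6 of its 17788 genes. All 6 passed the filter on low counts, which left 14865 genes for testing. The RNA-seq data came from 32 libraries of MCF10A, an immortalised, non-tumorigenic human mammary epithelial cell line. JUNB WT cells were clones 27 and 2, and JUNB mut cells were clones 1 and 65, each grown from a single cell after CRISPR/Cas9 treatment. JUNB encodes a component of AP-1, a dimeric transcription factor. The mut clones, which the sample labels call JUNB knock-out, carry a large deletion in JUNB and still make a smaller JUNB polypeptide at a low level that TGFβ1 increases. Cells of each genotype received 5 ng/ml TGFβ1 for 6, 24 or 72 h, or solvent (BSA in PBS), which the labels give as time 0 and which the study applied for 72 h. This gave 8 groups of 4 libraries, namely 2 clones with 2 replications each. A clone and its replication are written as one name, a series, such as 27-2. With 2 clones for each genotype, a difference between genotypes cannot be told apart from a difference between these clones.

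SNAI1 (SNAIL) and SNAI2 (SLUG) are zinc finger proteins that bind E-box sequences and repress epithelial genes such as CDH1, the gene of E-cadherin. ZEB1 and ZEB2 bind similar E-boxes through 2 zinc finger clusters, and are kept low in epithelial cells by the microRNAs of the miR-200 family, whose genes ZEB1 and ZEB2 repress in turn. TWIST1 and TWIST2 are basic helix-loop-helix proteins that bind DNA as dimers with E proteins, and ID proteins take those partners away from them. TGFβ1 signals through SMAD proteins, and SNAI1 is a well known early SMAD target. SNAI2 is also a normal transcription factor of basal mammary epithelial cells, the cell type that MCF10A resembles most. The question put to the data was when each gene responds to TGFβ1, at which level it is expressed, and whether these values differ between JUNB WT and JUNB mut cells.

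In WT cells SNAI1 and SNAI2 rose at 6 h, the first time measured, and stayed up to 72 h. SNAI1 showed the larger fold, from a mean of 0.36 CPM (counts scaled to a library total of 1e+06) in solvent to 6.38 CPM at 24 h, while SNAI2 went from 102 to 328 CPM. ZEB2 was called higher at 24 h and ZEB1 at 72 h, each by less than 2-fold. Scaled by library totals, TWIST2 group means differed from solvent by 1.22-fold at most in WT cells, and TWIST1 showed lower values than in solvent. Both depended on the scaling. With TMM factors, which remove a shift of the median gene, TWIST2 had 36.4 CPM at 24 h and 26.3 CPM in solvent. TWIST1 was then not called in WT cells at any time. In mut cells SNAI1 and SNAI2 also rose at 6 h, and TWIST2 rose at 24 and 72 h. SNAI1, SNAI2, ZEB1, ZEB2 and TWIST2 were each called lower in mut than in WT cells at 1 or more times of TGFβ1. Of all tested genes, 21.4%, 36.9% and 39.2% were called in these comparisons at 6, 24 and 72 h. The ZEB1, ZEB2 and TWIST2 calls were lost when certain single libraries were left out. In solvent limma-voom called none of the 6 genes, beside 12.7% of all, while edgeR and DESeq2 called ZEB2.

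**Figure D1:**
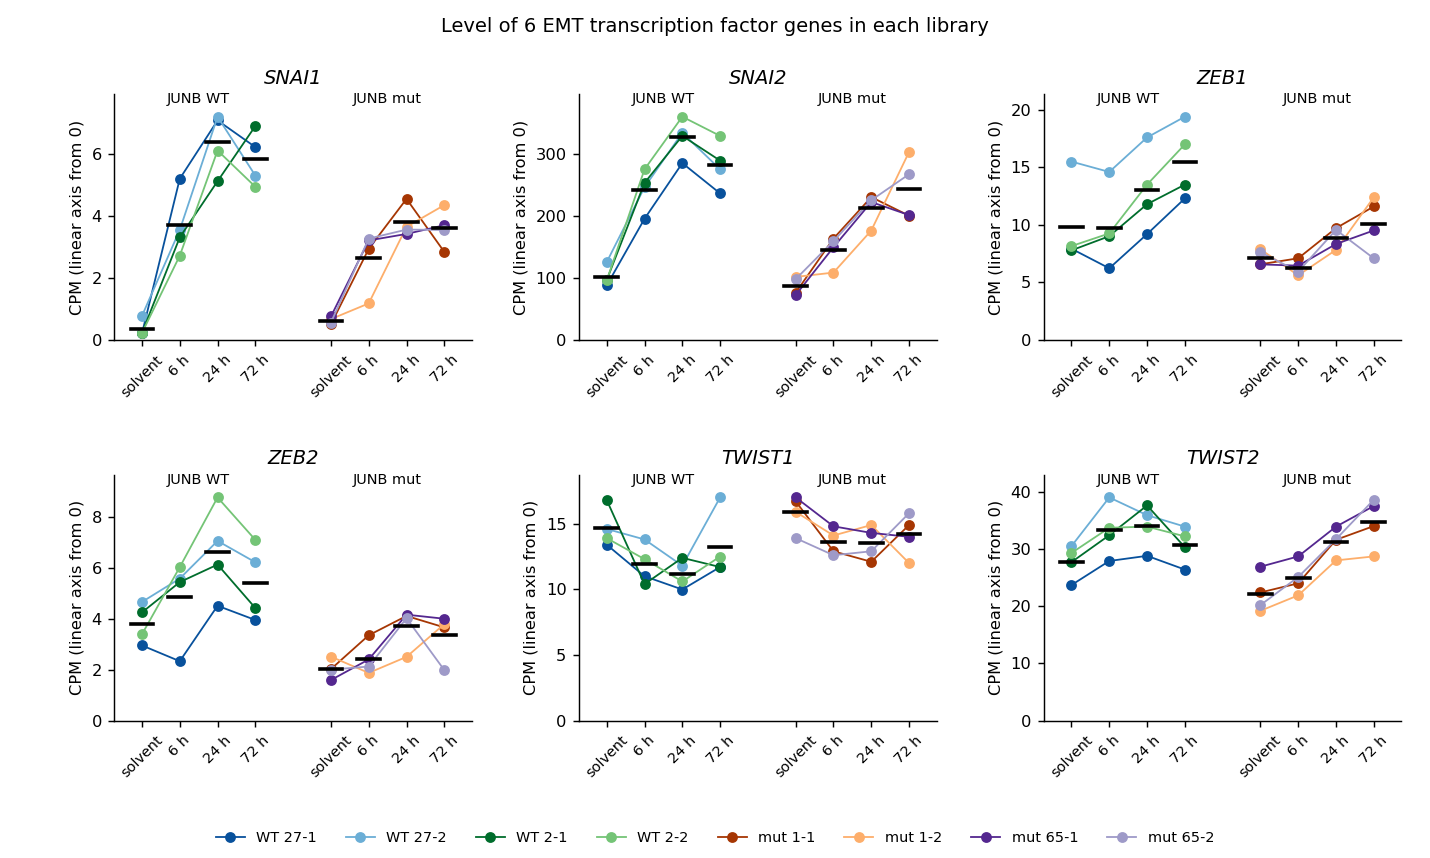
CPM of each gene in each of the 32 libraries, on linear axes that start at 0 and differ between genes. Lines join the 4 libraries of a series and black bars are means of 4 libraries. SNAI1 and SNAI2 climb at 6 h in all 8 series, from 1.07-fold upwards, whereas TWIST1 is below its solvent value at 6 h and 24 h in all 8.

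Library totals ranged from 39702412 to 54651906 counts, so that 3 counts corresponded to 0.0549 to 0.0756 CPM. SNAI1 had 9 counts in its lowest library, the fewest of the 6 genes, and 387 in its highest. Genes of basal mammary epithelium were abundant in every library (KRT5 3260 to 8160 CPM, TP63 64.7 to 152 CPM). Luminal genes were present as well, with CDH1 at 147 to 599 CPM, KRT8 at 85.9 to 237 CPM and EPCAM at 9.23 to 82.7 CPM. KRT19 and ESR1 reached at most 0.314 and 1.22 CPM. The 6 measured luminal genes summed to 524 to 792 CPM in WT solvent and 797 to 932 CPM in mut solvent, a difference that was not tested. Of 4 measured leukocyte genes, PTPRC and CD3E had at most 3 counts in all 32 libraries, while CD68 lay at 5.64 to 24.4 CPM and CD14 at 2.29 to 28.1 CPM. Of 6 measured fibroblast genes, COL3A1 was at or under 3 counts in 31 libraries, while the summed level of the list, in which FAP and COL1A1 are the most abundant, was 43.1 to 67.5 CPM in WT solvent and 268 to 383 CPM at 72 h (54.6 to 80.0 and 197 to 270 CPM in mut). The part of that list in the values below was not tested. Summed endothelial levels, nearly all KDR, were 2.94 to 15.1 CPM over the WT libraries and 13.1 to 27.0 CPM over the mut libraries. JUNB counts do not check the genotype labels: JUNB ranged from 89.7 to 117 CPM in WT solvent and from 69.2 to 172 CPM in mut solvent. Libraries of the WT series 27-2 and of the mut series 1-2 stood apart from the other series, and results that change without them are given with both values. In bulk RNA, more cells that express a gene and more RNA of it in each cell cannot be told apart.

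The 6 genes lie on 5 chromosomes of GRCh38. SNAI1 (ENSG00000124216) is on chromosome 20 from 49982980 to 49988886 on the plus strand, and SNAI2 (ENSG00000019549) is on chromosome 8 from 48917598 to 48921740 on the minus strand. ZEB1 (ENSG00000148516) covers chromosome 10 from 31318495 to 31529814 on the plus strand. ZEB2 (ENSG00000169554) covers chromosome 2 from 144364364 to 144521057 on the minus strand. TWIST1 (ENSG00000122691) is annotated on chromosome 7 from 19020991 to 19117636 on the minus strand, and TWIST2 (ENSG00000233608) on chromosome 2 from 238848032 to 238910534 on the plus strand. Values are sums over the exons of a gene. The library kit keeps no strand. Reads from 396 bases that ZEB1 shares with the antisense gene ZEB1-AS1 could therefore stem from the opposite strand, or be left out of the counts. The same holds for 1299 bases that ZEB2 shares with ZEB2-AS1 and for 121 bases of SNAI2 shared with an unnamed one. How reads over shared bases were assigned is not stated in the study.

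Levels between genes were compared as CPM per kb of exon. SNAI2 made up most of the summed level of the 6 genes in every group, from 57.5% in mut solvent to 78.7% in WT at 24 h. In WT solvent, SNAI2 had 31.1 ± 5.07 CPM per kb (SD, n = 4), TWIST2 13.1 ± 1.39, TWIST1 7.36 ± 0.743 and ZEB1 1.14 ± 0.436 CPM per kb. SNAI1 followed with 0.211 ± 0.163 CPM per kb and ZEB2 with 0.146 ± 0.0298 CPM per kb. At 24 h SNAI1 had passed ZEB1 in WT cells, with 3.74 ± 0.569 against 1.5 ± 0.406 CPM per kb, and likewise in mut cells, with 2.23 ± 0.301 against 1.03 ± 0.107. The rank of ZEB2 depended on its length. Its annotated exons add up to 26151 bases and its canonical transcript to 9265 bases, and with the latter, a choice made after seeing the data, ZEB2 had 0.412 ± 0.0842 CPM per kb in WT solvent and stood above SNAI1 at 0.211. In mut solvent ZEB2 stayed below SNAI1 with either length, at 0.0780 and 0.220 against 0.367 CPM per kb. The other genes kept their order in solvent.

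**Figure D2:**
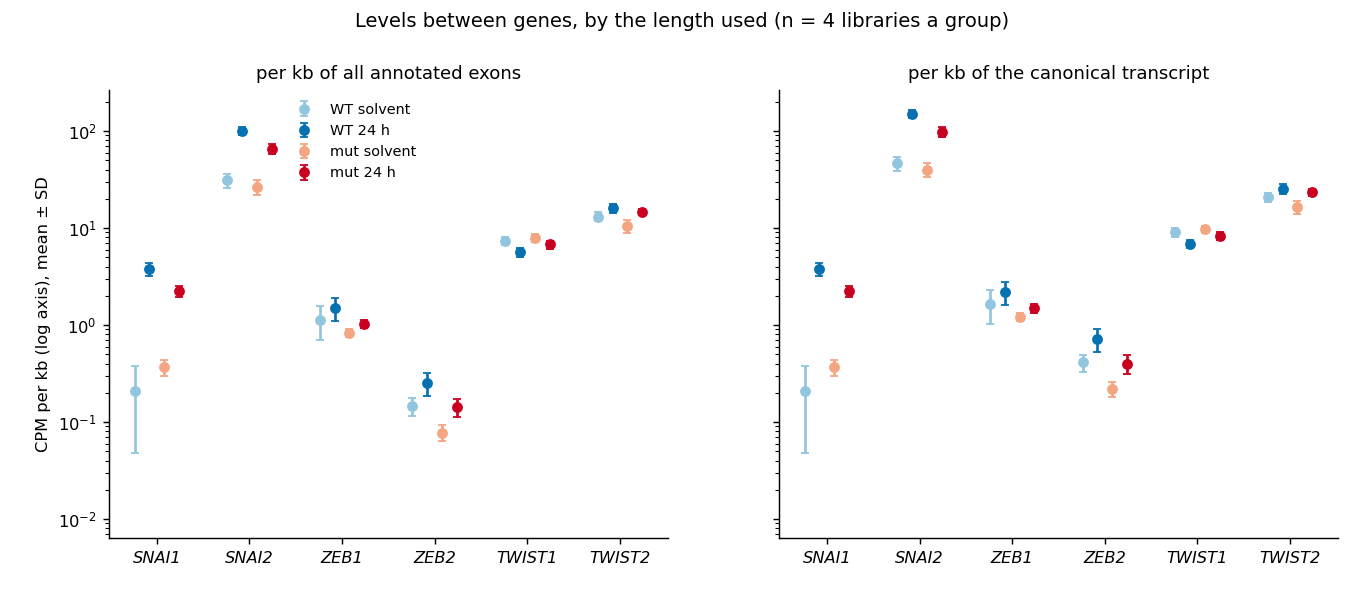
Mean CPM per kb ± SD (n = 4 libraries) on a log axis for the 6 genes in solvent and at 24 h of TGFβ1, per kb of all annotated exons on the left and per kb of the canonical transcript on the right. SNAI2 lies highest in each group, and ZEB2 shifts upwards on the right, from 0.146 to 0.412 CPM per kb in WT solvent.

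SNAI1 and SNAI2 are described first, as the genes called at 6 h in both genotypes. SNAI1 in WT solvent was 0.21, 0.778, 0.225 and 0.227 CPM in the series 27-1, 27-2, 2-1 and 2-2. At 6 h it was 5.20, 3.55, 3.31 and 2.72 CPM, and at 24 h 7.08, 7.20, 5.12 and 6.11 CPM. Every treated library lay above every solvent library. At 72 h the values were 6.22, 5.30, 6.90 and 4.94 CPM, within the range of 24 h except for the lowest library. Against solvent, SNAI1 rose on the log2 scale by 3.53 ± 0.48 (SE) at 6 h, by 4.37 ± 0.47 at 24 h and 4.22 ± 0.47 at 72 h (limma-voom adjusted p = 8.25e-06, 1.40e-08 and 2.86e-08). Within series the rise at 24 h was 9.25-fold in 27-2, whose solvent library was the highest, and 22.7- to 33.8-fold in the other 3 WT series.

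In mut cells SNAI1 started at 0.508, 0.674, 0.758 and 0.563 CPM in the series 1-1, 1-2, 65-1 and 65-2. It reached 2.94, 1.18, 3.21 and 3.27 CPM at 6 h, where series 1-2 was far below the other 3. The values were 4.55, 3.65, 3.42 and 3.56 CPM at 24 h and 2.84, 4.35, 3.70 and 3.55 CPM at 72 h. Treated and solvent libraries did not overlap in mut cells either. In log2 terms the rise was 2.02 ± 0.39 (SE) after 6 h, 2.60 ± 0.37 after 24 h and 2.51 ± 0.37 after 72 h (limma-voom adjusted p = 0.00229, 1.18e-05 and 1.05e-05). At 24 h the lowest WT library, 5.12 CPM, was above the highest mut library, 4.55 CPM.

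SNAI2 was high before treatment, as in basal mammary cells. WT solvent libraries had 88.3, 126, 97.0 and 96.2 CPM (27-1, 27-2, 2-1 and 2-2), and 6 h libraries 196, 247, 254 and 276 CPM. At 24 h they had 286, 335, 330 and 361 CPM, the highest value of each WT series. At 72 h they had 237, 276, 290 and 330 CPM, lower than at 24 h in all 4 series, though the step of -0.22 ± 0.15 (log2, SE) was not called (limma-voom adjusted p = 0.419). Against solvent, SNAI2 rose by 1.26 ± 0.15 on the log2 scale at 6 h, 1.70 ± 0.15 at 24 h and 1.48 ± 0.15 at 72 h (limma-voom adjusted p = 1.11e-06, 4.52e-10 and 5.65e-09).

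In mut cells SNAI2 was 76.6, 102, 72.7 and 98.4 CPM in solvent (1-1, 1-2, 65-1 and 65-2) and 164, 109, 150 and 160 CPM at 6 h. Series 1-2 had gained 1.07-fold by 6 h, against 1.62- to 2.14-fold in the other 3. Values of 231, 177, 223 and 226 CPM at 24 h were followed by 201, 304, 202 and 268 CPM at 72 h. At 72 h the mut libraries overlapped the WT libraries, whereas at 6 h and at 24 h all 4 lay below all 4 of WT. The log2 fold changes against solvent were 0.74 ± 0.15 (SE), 1.30 ± 0.15 and 1.47 ± 0.15 at 6, 24 and 72 h (limma-voom adjusted p = 0.00409, 5.01e-07 and 4.76e-08).

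The share of the 24 h change reached by 6 h varied between series. In WT series, SNAI1 had made 42.4% to 72.6% of its 24 h change (in CPM) by 6 h, and SNAI2 54.7% to 68.1%. In mut series the ranges were 17.0% to 92% for SNAI1 and 9.3% to 56.4% for SNAI2, with series 1-2 lowest for both. SNAI1 peaked at 24 h in 3 of 4 WT series and in 2 of 4 mut series, and at 72 h in the others. SNAI2 peaked at 24 h in 4 of 4 WT series and 2 of 4 mut series. Between 6 and 24 h, both genes rose again in WT cells (log2 change 0.84 ± 0.20 for SNAI1 and 0.44 ± 0.15 for SNAI2, limma-voom adjusted p = 0.00252 and 0.0258). In that step 2 of the 6 genes were called, beside 28.2% of all genes. The SNAI2 call was lost without the whole series 27-2 (adjusted p = 0.0665) or without 1 of the libraries WT 6 h 27-1, WT 24 h 27-2 and WT 24 h 2-2 (adjusted p = 0.0554 to 0.119). With the series as a block, which compares libraries within a series, 4 were called (37.7% of all genes), ZEB1 and ZEB2 being added at 0.42 and 0.46 (adjusted p = 0.0104 and 0.0324, and 0.128 and 0.154 on clone sums). Without the block, ZEB1 was also called when WT 6 h 27-2 was left out, at 0.63 (adjusted p = 0.0408).

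In mut cells 1 of the 6 genes was called between 6 and 24 h, SNAI2 at 0.57 ± 0.15 (limma-voom adjusted p = 0.033), beside 3.12% of all genes. This call was lost when the replications of a clone were summed (adjusted p = 0.0501), and without any 1 of mut 6 h 1-2, mut 6 h 65-1, mut 24 h 1-1, mut 24 h 65-1 and mut 24 h 65-2 (adjusted p = 0.0679 to 0.149). With the series block 3 were called (11.6% of all genes), namely SNAI2, ZEB1 at 0.49 and TWIST2 at 0.33 (adjusted p = 0.00447, 0.0322 and 0.00181), of which ZEB1 and TWIST2 had 0.283 and 0.236 on clone sums. From 24 to 72 h 0 of the 6 were called in WT cells, beside 7.83% of all genes, and 0 in mut cells, beside 1.31%. At an unadjusted p under 0.05, and by edgeR and DESeq2, the count in these steps was 0 as well.

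ZEB1 and ZEB2 were first called in WT cells at 72 h and at 24 h, and a difference in timing from SNAI1 and SNAI2 was not tested. ZEB1 in WT solvent was 7.93, 7.79 and 8.16 CPM in the series 27-1, 2-1 and 2-2, and 15.5 CPM in 27-2. Series 27-2 also had the highest ZEB1 at 6, 24 and 72 h, with 14.6, 17.6 and 19.4 CPM. The other 3 WT series had 6.23 to 9.26 CPM at 6 h, 9.20 to 13.5 CPM at 24 h and 12.3 to 17.0 CPM at 72 h, and ZEB1 was highest at 72 h in 4 of 4 WT series. Fitted log2 fold changes (± SE) were 0.01 ± 0.24 after 6 h, 0.43 ± 0.22 after 24 h and 0.72 ± 0.22 after 72 h (limma-voom adjusted p = 0.98, 0.111 and 0.00704), and solvent and 72 h libraries overlapped through 27-2. The 24 h change was called without the series 27-2, at 0.49 (adjusted p = 0.0288), without WT solvent 27-2 alone or WT 24 h 27-1 alone (0.66 and 0.60, adjusted p = 0.0182 and 0.0283), with TMM factors at 0.61 (adjusted p = 0.0319), by edgeR and DESeq2 (adjusted p = 0.0467 and 0.0300), and with the series block at 0.41 (adjusted p = 0.00761).

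In mut cells ZEB1 was 6.57 to 7.88 CPM in solvent, 5.62 to 7.10 CPM at 6 h, 7.83 to 9.72 CPM at 24 h and 7.09 to 12.4 CPM at 72 h. Library mut 72 h 65-2, with 7.09 CPM, was below its own solvent value of 7.62 CPM, and the other 3 series were 1.45- to 1.76-fold above theirs. The log2 fold changes of -0.19 ± 0.26, 0.31 ± 0.25 and 0.49 ± 0.24 were not called (limma-voom adjusted p = 0.731, 0.398 and 0.139). At 72 h the change was called with the series block (0.50, adjusted p = 0.00653), and without the WT series 27-2, which enters the shared estimate of the spread (0.49, adjusted p = 0.0261).

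ZEB2 in WT solvent was 2.96, 4.67, 4.26 and 3.40 CPM (27-1, 27-2, 2-1 and 2-2) and at 24 h 4.52, 7.07, 6.14 and 8.78 CPM, the highest value of every WT series. At 6 h library 27-1 stood at 2.34 CPM and the other 3 at 5.45 to 6.04 CPM. At 72 h the values were 3.96, 6.23, 4.43 and 7.11 CPM. All 4 series were higher at 24 h than in solvent, while the groups overlapped. Fitted log2 fold changes (± SE) were 0.30 ± 0.28 after 6 h, 0.76 ± 0.27 after 24 h and 0.50 ± 0.27 after 72 h (limma-voom adjusted p = 0.529, 0.0175 and 0.127). The 24 h call was lost without WT solvent 27-1 or without WT 24 h 2-2 (adjusted p = 0.0710 and 0.0659), and the 72 h change was called by edgeR, DESeq2 and the series block (adjusted p = 0.0456, 0.0276 and 0.0225).

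ZEB2 in mut solvent was 2.03, 2.52, 1.60 and 2.01 CPM (1-1, 1-2, 65-1 and 65-2). The treated values were 1.88 to 3.36 CPM at 6 h, 4.12, 2.51, 4.17 and 4.03 CPM at 24 h, and 3.67, 3.80, 4.01 and 1.99 CPM at 72 h. In 3 of 4 series the 24 h value was 2.00- to 2.61-fold the solvent value, and in series 1-2 it was 0.998-fold. The log2 changes of 0.24 ± 0.36, 0.85 ± 0.34 and 0.70 ± 0.34 were not called (limma-voom adjusted p = 0.747, 0.064 and 0.13). At 24 h ZEB2 was called by edgeR (0.95, adjusted p = 0.0192) and DESeq2 (0.96, adjusted p = 0.00564), with the series block (0.86, adjusted p = 0.00526), on clone sums (0.87, adjusted p = 0.0419), on these groups alone (adjusted p = 0.0131), without series 1-2 (1.13, adjusted p = 0.0426) and without mut 24 h 1-2 (1.03, adjusted p = 0.0313). At 72 h it was called by edgeR and DESeq2 (adjusted p = 0.0423 and 0.0223), with the series block (0.73, adjusted p = 0.0169) and without mut 72 h 65-2 (0.92, adjusted p = 0.0434).

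ZEB1 and ZEB2 varied together from library to library. Over the 32 libraries their log2 CPM values had a Pearson correlation of 0.824, and 0.737 for deviations from the group means. Without series 27-2 the first was 0.810. SNAI1 and SNAI2 had a correlation of 0.899 over the libraries and 0.373 within groups. TWIST1 and TWIST2 had -0.193 over the libraries and 0.591 within groups. These are descriptions: the libraries share clones, series and depth.

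**Figure D3:**
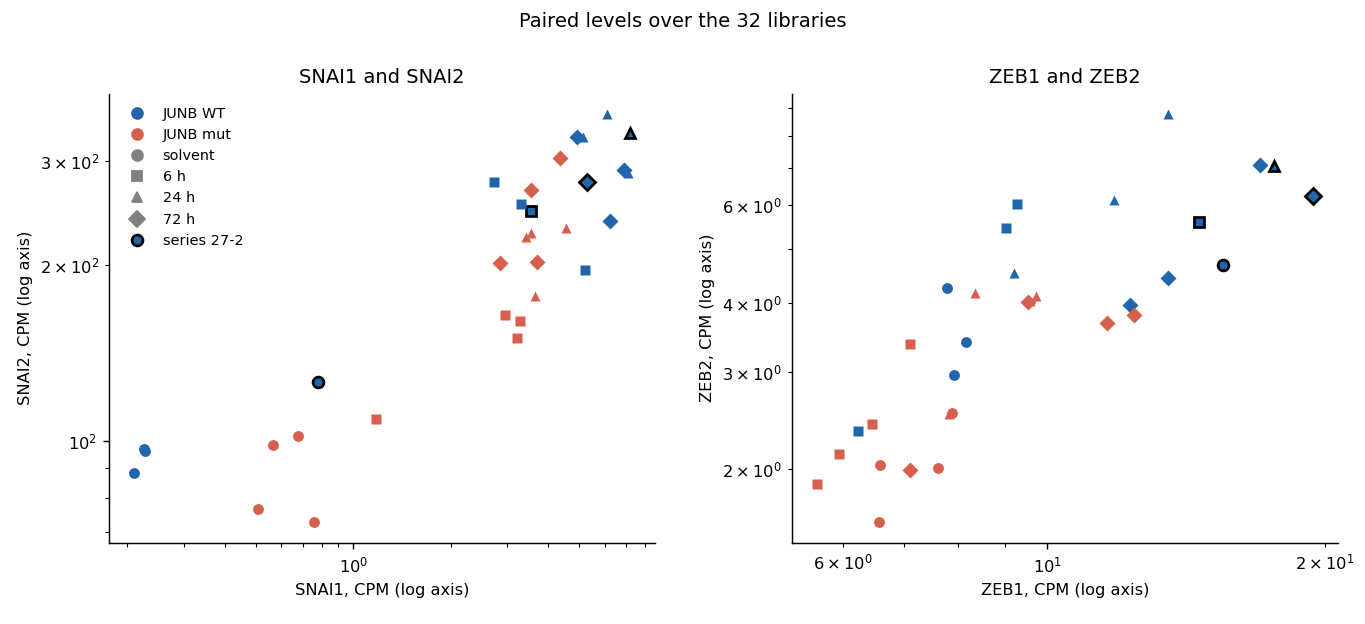
CPM of SNAI2 against SNAI1 (left) and of ZEB2 against ZEB1 (right), each point 1 of 32 libraries on log axes, with colour for genotype, shape for treatment and a black outline for the WT series 27-2. SNAI1 separates solvent from treated libraries, of which mut 6 h 1-2 is the lowest at 1.18 CPM. For SNAI2 that library, at 109 CPM, lies below WT solvent 27-2 at 126 CPM. ZEB1 and ZEB2 form 1 continuous cloud in which 27-2 has the highest ZEB1 of each treatment.

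Sequence upstream of the ZEB1, ZEB2 and TWIST2 starts was read from RefSeq (GRCh38.p14), because AP-1 is the factor that was altered and E-boxes are what the SNAI and ZEB proteins bind. No window was obtained for SNAI1, SNAI2 and TWIST1, so nothing is said of their upstream sequence. Each window holds the 250 bases before a transcript start, 5′ to 3′ on the gene's strand, and the window at the canonical start is shown. The ZEB1 and ZEB2 windows lie inside the annotated span of their gene, which includes transcripts that start further upstream, and most of the TWIST2 window lies before that gene. Capitals mark the E-box CAGGTG or its reverse complement CACCTG. No AP-1 letters (TGANTCA, the same on both strands) lay in these windows.
ZEB1, chr10:31318966-31319215, plus strand: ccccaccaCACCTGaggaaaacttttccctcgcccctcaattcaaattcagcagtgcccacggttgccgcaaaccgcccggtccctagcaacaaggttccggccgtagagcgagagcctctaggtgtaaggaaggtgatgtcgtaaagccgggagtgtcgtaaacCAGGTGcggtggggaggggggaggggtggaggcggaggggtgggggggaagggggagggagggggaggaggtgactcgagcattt
ZEB2, chr2:144520120-144520369, minus strand: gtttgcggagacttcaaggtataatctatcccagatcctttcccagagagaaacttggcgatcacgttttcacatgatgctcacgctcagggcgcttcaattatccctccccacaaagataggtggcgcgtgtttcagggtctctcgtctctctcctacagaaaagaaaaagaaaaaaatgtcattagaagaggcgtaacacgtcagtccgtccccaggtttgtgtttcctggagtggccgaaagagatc
TWIST2, chr2:238847835-238848084, plus strand: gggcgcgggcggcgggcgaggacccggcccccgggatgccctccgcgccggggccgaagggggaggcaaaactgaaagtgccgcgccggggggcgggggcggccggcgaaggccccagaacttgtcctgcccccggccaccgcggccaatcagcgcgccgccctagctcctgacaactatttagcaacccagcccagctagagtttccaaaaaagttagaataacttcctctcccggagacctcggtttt

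The ZEB1 window holds 2 E-boxes, which begin 242 and 85 bases before the start, and 1 of the 6 other ZEB1 windows holds 1, at 57 bases. The ZEB2 and TWIST2 windows hold 0. Of all 35116 windows of this length, 17.5% hold the E-box and 6.57% the AP-1 letters. A SMAD box (CAGAC or its reverse complement) was in 3 of the 7 ZEB1 windows, in neither of the other genes' windows and in 38.0% of all. The windows differ in base composition, with 62.4% G and C for the ZEB1 window shown, 48.0% for ZEB2 and 68.4% for TWIST2. A match of letters is a description of the window, and its absence says nothing of sites elsewhere.

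MicroRNA levels were not measured in these libraries, but the miR-200 family and miR-205 are shown because ZEB1 and ZEB2 are their classical targets. Mature sequences are from RefSeq (GRCh38.p14), 5′ to 3′, with the seed, bases 2 to 8, in capitals, and the first 3 and the next 2 share a seed.
hsa-miR-200b-3p, chr1:1167160-1167181: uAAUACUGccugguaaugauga
hsa-miR-200c-3p, chr12:6963742-6963764: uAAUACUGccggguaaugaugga
hsa-miR-429, chr1:1169055-1169076: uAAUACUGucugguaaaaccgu
hsa-miR-200a-3p, chr1:1167916-1167937: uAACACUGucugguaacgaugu
hsa-miR-141-3p, chr12:6964155-6964176: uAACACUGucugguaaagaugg
hsa-miR-205-5p, chr1:209432166-209432187: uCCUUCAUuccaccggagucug

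The complement of the first seed, CAGTATT, occurs 6 times in the 3′ untranslated region of the canonical ZEB1 transcript (2540 bases) and 5 times in that of ZEB2 (5370 bases). That of the second, CAGTGTT, occurs 3 and 4 times, and that of miR-205, ATGAAGG, once in ZEB1 and not in ZEB2. In SNAI1, SNAI2, TWIST1 and TWIST2 the count over the 3 seeds was 1, a CAGTATT in SNAI2. Of 19183 such regions in all protein-coding genes, which are of all lengths, 16.4%, 18.5% and 11.8% hold the 3 sites. MIR205HG, the host transcript of miR-205, lay at 244 to 495 CPM over the 32 libraries, and with library sizes it was not called at 72 h in either genotype. Of the 2 tested antisense genes of the family, ZEB1-AS1 and SNAI3-AS1, ZEB1-AS1 alone was called at 72 h. It fell from 2.96 ± 0.728 CPM (SD, n = 4) in WT solvent to 1.60 ± 0.125 CPM at 72 h and from 3.93 ± 0.766 to 2.11 ± 0.432 CPM in mut cells.

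TWIST1 and TWIST2 changed by less than 2-fold in every series. TWIST1 in WT solvent was 13.4, 14.6, 16.8 and 13.9 CPM (27-1, 27-2, 2-1 and 2-2) and at 24 h 9.99, 11.8, 12.4 and 10.6 CPM, so that the groups did not overlap. At 72 h library 27-2 had 17.0 CPM and the other 3 had 11.7 to 12.5 CPM. On the log2 scale TWIST1 stood at -0.30 ± 0.12 (SE) after 6 h, -0.40 ± 0.12 after 24 h and -0.16 ± 0.12 after 72 h (limma-voom adjusted p = 0.0857, 0.00653 and 0.275). The median gene also had lower values at 24 h, by -0.18 on the log2 scale, and with TMM factors, which remove that shift, TWIST1 was at -0.22 and not called (adjusted p = 0.140, and 0.141 and 0.148 by edgeR and DESeq2). The 6 h change was called without series 27-2 (-0.37, adjusted p = 0.0369), without WT 6 h 27-2 (-0.37, adjusted p = 0.0472) and with the series block (-0.30, adjusted p = 0.0394), and the 72 h change without series 27-2 or WT 72 h 27-2 (-0.29 for both, adjusted p = 0.0461 and 0.0374). In mut cells TWIST1 ranged from 12.0 to 17.0 CPM over all 16 libraries, with log2 changes of -0.22 ± 0.11, -0.23 ± 0.11 and -0.17 ± 0.11 that were not called.

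TWIST2 in WT solvent was 23.7, 30.5, 27.7 and 29.3 CPM (27-1, 27-2, 2-1 and 2-2). It was higher than in solvent in 4 of 4 WT series at each time, by 1.09- to 1.36-fold, with 28.8, 35.9, 37.6 and 33.9 CPM at 24 h. The log2 change was 0.26 ± 0.12 (SE), 0.29 ± 0.12 and 0.15 ± 0.12 at 6, 24 and 72 h (limma-voom adjusted p = 0.131, 0.0403 and 0.303). The 24 h call was lost without series 27-2 (adjusted p = 0.0565) and without any 1 of WT solvent 27-1, WT solvent 2-1, WT 24 h 27-2, WT 24 h 2-1 and WT 24 h 2-2 (adjusted p = 0.0659 to 0.168). With TMM factors the 24 h change was 0.47 and the 72 h change 0.31, and both were called (adjusted p = 0.0021 and 0.0392). With the series block TWIST2 was called at 6 h (0.26, adjusted p = 0.00333), and by DESeq2 (0.34, adjusted p = 0.0435), but not on clone sums (0.28, adjusted p = 0.145).

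In mut cells TWIST2 had its highest value at 72 h in 4 of 4 series, whereas 0 of 4 WT series did. Mut solvent libraries had 22.4, 19.2, 26.9 and 20.2 CPM (1-1, 1-2, 65-1 and 65-2), those at 24 h 31.6, 28.0, 33.9 and 31.7 CPM and those at 72 h 34.0, 28.7, 37.5 and 38.6 CPM. Solvent did not overlap with either time. On the log2 scale TWIST2 stood at 0.18 ± 0.13 (SE) after 6 h, 0.50 ± 0.12 after 24 h and 0.64 ± 0.12 after 72 h (limma-voom adjusted p = 0.414, 0.00364 and 2.13e-04).

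**Figure D4:**
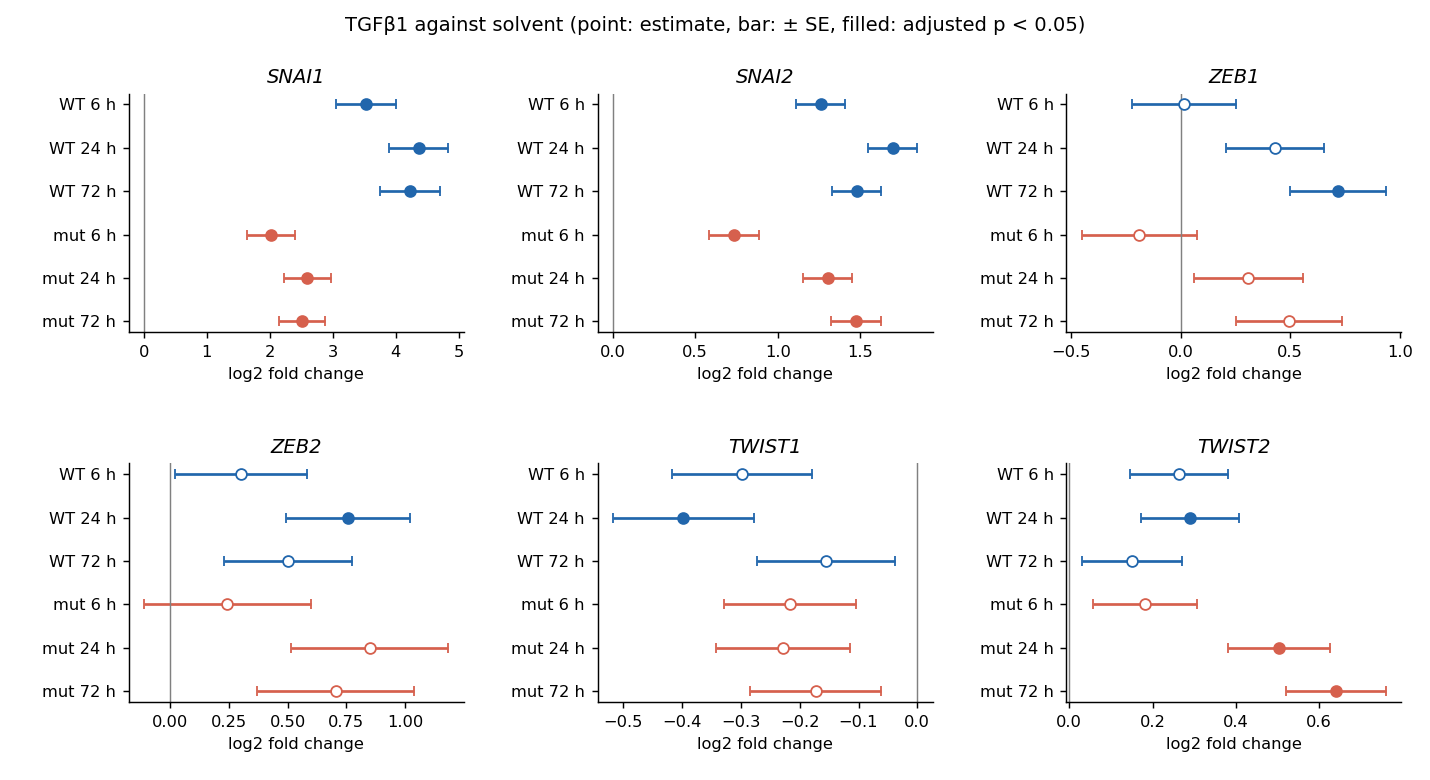
Log2 fold change of TGFβ1 against solvent for each gene, genotype and time, with the standard error as bar and a filled point where the limma-voom adjusted p was under 0.05. The axes differ between genes, and SNAI1 spans 2.02 to 4.37 where TWIST1 spans -0.40 to -0.16.

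Counted together, 2 of the 6 genes were called in WT cells at 6 h (SNAI1 and SNAI2), beside 17.0% of all tested genes. At 24 h 5 were called, 4 higher and TWIST1 lower, beside 52.1%, and at 72 h 3 were called (SNAI1, SNAI2 and ZEB1), all higher, beside 52.2%. In mut cells 2 were called at 6 h, beside 7.00%, and SNAI1, SNAI2 and TWIST2 were called at 24 h and at 72 h, beside 23.8% and 24.1%. These shares pool both directions. Of 14865 genes, 2098 were called higher and 5654 lower in WT cells at 24 h, and 2061 and 5705 at 72 h. In mut cells 1004 were called higher and 2537 lower at 24 h, and 1161 and 2423 at 72 h. An excess of the 6 genes in 1 direction was not tested, so their counts are not read as a result, and their sizes of change are given instead. The order of first calls depended on the fit. With the series block, TWIST1 and TWIST2 joined at 6 h in WT cells (4 genes, 25.9% of all), all 6 were called at 24 h (59.6%), and SNAI1, SNAI2, ZEB1 and ZEB2 at 72 h (60.0%). In mut cells the block called 4 genes at 24 h (35.0%), ZEB2 being added, and 5 at 72 h (33.9%), all but TWIST1. Of the calls against solvent that the block added, ZEB2 in mut cells at 24 h was also called on clone sums. The others were not, namely TWIST1 and TWIST2 in WT cells at 6 h (adjusted p = 0.116 and 0.145), ZEB1 at 24 h (0.0563) and ZEB2 at 72 h (0.0629) in WT cells, and ZEB1 and ZEB2 in mut cells at 72 h (0.0882 and 0.0734).

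Mut and WT cells were then compared within each treatment. In solvent 0 of the 6 genes were called by limma-voom, beside 12.7% of all genes, with 2 (ZEB2 and TWIST2) at an unadjusted p under 0.05 and 1 (ZEB2) by edgeR and by DESeq2. SNAI1 had a mean of 0.626 CPM in mut and 0.36 CPM in WT solvent, and library WT solvent 27-2, at 0.778 CPM, was above all mut libraries while the other 3 WT libraries were below them. Its log2 difference of 1.02 ± 0.57 (SE) was not called (limma-voom adjusted p = 0.256). ZEB2 was 1.60 to 2.52 CPM in mut solvent and 2.96 to 4.67 CPM in WT solvent, without overlap, at a log2 difference of -0.89 ± 0.33 (limma-voom adjusted p = 0.0774, 0.0325 by edgeR, 0.0131 by DESeq2, 0.0251 on these groups alone and 0.0475 on clone sums). TWIST2, at -0.33 ± 0.12 (adjusted p = 0.0839), was called without WT solvent 27-1 (-0.41, adjusted p = 0.0461) or without mut solvent 65-1 (-0.42, adjusted p = 0.0317).

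At 6 h of TGFβ1, 3 genes were called lower in mut cells, beside 21.4% of all genes. SNAI2 differed by -0.75 ± 0.15 (log2, SE; limma-voom adjusted p = 4.98e-04), ZEB2 by -0.95 ± 0.31 (0.0261) and TWIST2 by -0.41 ± 0.12 (0.0136). The TWIST2 call was lost without series 27-2, without WT 6 h 27-2 and without mut 6 h 1-2 (adjusted p = 0.0626, 0.0662 and 0.0529). The ZEB2 call was lost without series 27-2 or 1-2 (adjusted p = 0.0709 and 0.0757), on these groups alone (0.0735), and without any 1 of WT 6 h 27-2, 2-1 and 2-2 and mut 6 h 1-2, 65-1 and 65-2 (0.0577 to 0.0929). ZEB1, at -0.59 ± 0.25 (adjusted p = 0.0988), was called without WT 6 h 27-1, by DESeq2 and on clone sums (adjusted p = 0.0264, 0.0291 and 0.0398).

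At 24 h, 3 genes were called lower in mut cells, beside 36.9% of all genes, a comparison in which 3672 genes were called higher and 1820 lower in mut cells. SNAI1 differed by -0.75 ± 0.20 (log2, SE; limma-voom adjusted p = 0.00493) and SNAI2 by -0.62 ± 0.15 (0.0016). ZEB2 differed by -0.80 ± 0.27 (0.0192), a call lost without series 1-2, mut 24 h 1-2 or WT 24 h 2-2 (adjusted p = 0.101, 0.0896 and 0.0702). ZEB1, at -0.50 ± 0.23 (adjusted p = 0.0810), was called without WT 24 h 27-1, on clone sums, and by edgeR and DESeq2 (adjusted p = 0.0231, 0.0360, 0.0369 and 0.0227). TWIST1, at 0.28 ± 0.12 (adjusted p = 0.0714), was called without series 27-2 or mut 24 h 1-1 (0.31 and 0.33, adjusted p = 0.0399 and 0.0482), and with TMM factors its adjusted p was 0.237.

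At 72 h, 3 genes were called lower, beside 39.2% of all genes. SNAI1 differed by -0.69 ± 0.21 (log2, SE; limma-voom adjusted p = 0.00816), with 2.84 to 4.35 CPM in mut and 4.94 to 6.90 CPM in WT libraries. ZEB1 differed by -0.61 ± 0.21 (0.0218), a call lost without WT 72 h 27-2, WT 72 h 2-2 or mut 72 h 65-2 (adjusted p = 0.0905, 0.0580 and 0.0977). ZEB2 differed by -0.69 ± 0.28 (0.0472), a call lost without series 27-2 or 1-2 (adjusted p = 0.115 and 0.0546), without the low-count filter (0.0545), on these groups alone (0.0655), and without any 1 of WT 72 h 27-2 and 2-2 and mut 72 h 1-1, 1-2 and 65-2 (0.0521 to 0.186). SNAI2 was not called at 72 h, at -0.23 ± 0.15 (adjusted p = 0.227), and was called without series 1-2 (-0.34, adjusted p = 0.0403).

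**Figure D5:**
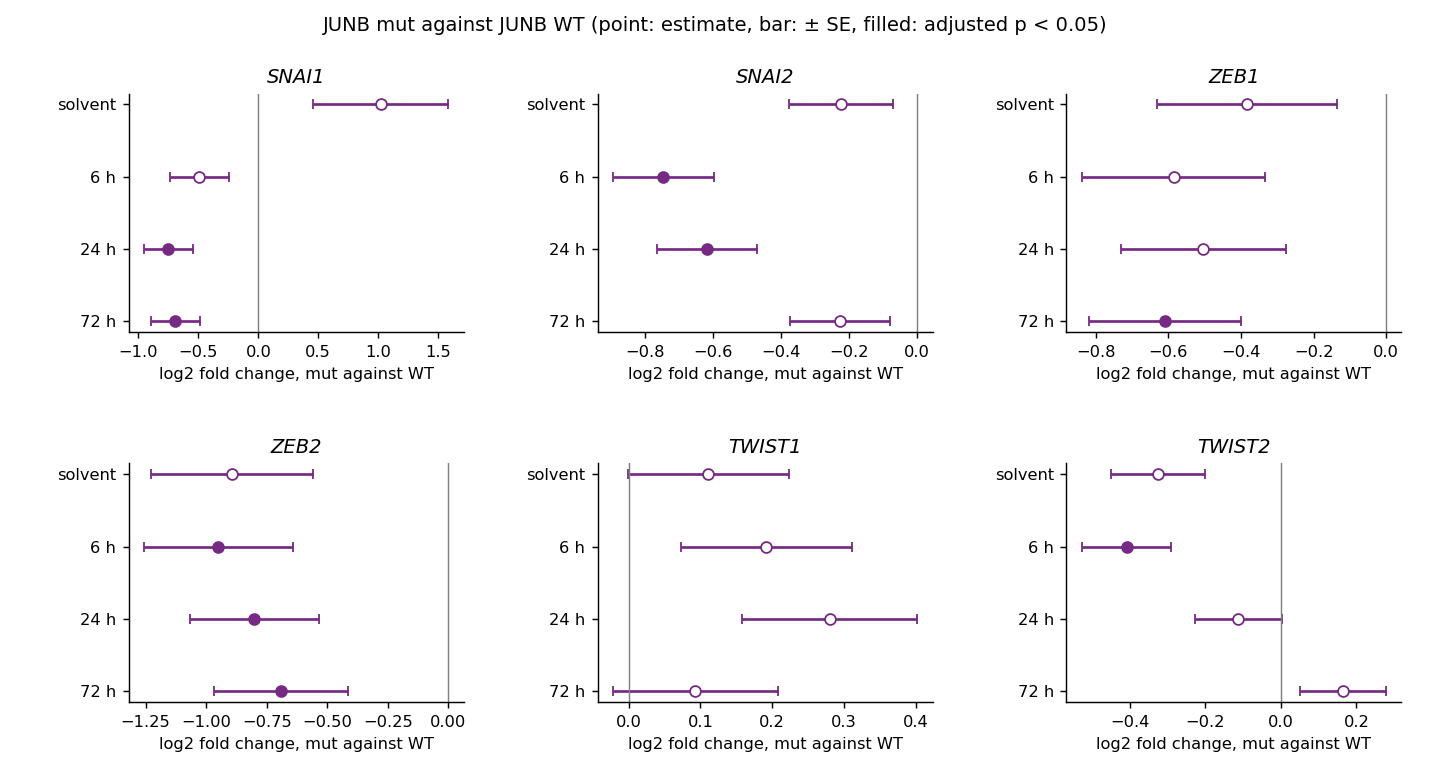
Log2 difference of mut against WT cells for each gene in solvent and at 6, 24 and 72 h of TGFβ1, with the standard error as bar and a filled point where the limma-voom adjusted p was under 0.05. The axes differ between genes. ZEB2 lies between -0.95 and -0.69 in all 4 states, whereas SNAI1 is at 1.02 in solvent and at -0.75 at 24 h.

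Whether the response itself differed was tested as the interaction, in which the WT change is subtracted from the mut change. At 6 h 0 of the 6 genes were called by limma-voom, edgeR or DESeq2, beside 0.0740% of all genes, with SNAI1 at -1.51 ± 0.62 (log2, SE) and SNAI2 at -0.52 ± 0.21, the 2 genes with an unadjusted p under 0.05 (limma-voom adjusted p = 0.947 for both). At 24 h 0 were called, beside 9.65% of all genes, with SNAI1 at -1.77 ± 0.60 (adjusted p = 0.0596). At 72 h 0 were called, beside 12.3%, with SNAI1 at -1.71 ± 0.60 (adjusted p = 0.0597) and TWIST2 at 0.49 ± 0.17 (adjusted p = 0.0539). These were the 1 and 2 genes with an unadjusted p under 0.05 at 24 and 72 h. At both times edgeR and DESeq2 called SNAI1 (adjusted p = 0.0288 and 0.00453 at 24 h, 0.0265 and 0.00455 at 72 h), as did the fit on the groups of the comparison alone (0.0200 and 0.0313) and the fit on genes with a mean count of at least 50 (0.0262 and 0.0259).

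The series block called SNAI1 at 24 h (1 gene of 6, 18.7% of all genes, adjusted p = 0.0451) and SNAI1 and TWIST2 at 72 h (2 genes, 23.5% of all, adjusted p = 0.0476 and 2.66e-04). On clone sums these were not called (adjusted p = 0.157 for SNAI1 at 24 h, and 0.148 and 0.103 for SNAI1 and TWIST2 at 72 h). The SNAI1 interaction includes its solvent levels, which rest on few counts. Without WT solvent 27-2, the highest solvent library of WT, it was -2.19 at 24 h and -2.13 at 72 h, and it was called (adjusted p = 0.0412 and 0.0384). It was also called without WT 24 h 2-1 at 24 h (-1.87, adjusted p = 0.0454), and without series 27-2, series 1-2 or mut 72 h 1-2 at 72 h (-2.18, -1.78 and -1.82, adjusted p = 0.0417, 0.0330 and 0.0438). The TWIST2 interaction was called without series 1-2 (adjusted p = 0.0429) and without any 1 of WT solvent 27-1, WT 72 h 27-2, mut solvent 65-1 and mut 72 h 1-2 (0.54 to 0.59, adjusted p = 0.0187 to 0.0411), but with TMM factors its adjusted p was 0.144. All p-values measure the spread between these libraries, whose replications may share a culture history.

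The order of the 8 groups by mean CPM differed between genes. SNAI1 ran from WT solvent (0.36) through mut solvent (0.626), mut 6 h (2.65), mut 72 h (3.61), WT 6 h (3.70), mut 24 h (3.80) and WT 72 h (5.84) to WT 24 h (6.38), and neighbours did not overlap at 2 of the 7 steps, from mut solvent to mut 6 h and from mut 24 h to WT 72 h. SNAI2 ran from mut solvent (87.4) through WT solvent (102), mut 6 h (146), mut 24 h (214), WT 6 h (243), mut 72 h (244) and WT 72 h (283) to WT 24 h (328), with a gap between mut 6 h and mut 24 h. For ZEB1, ZEB2, TWIST1 and TWIST2 the libraries of all 7 pairs of neighbours overlapped. ZEB1 was lowest in mut 6 h (6.28 ± 0.647 CPM, SD, n = 4) and highest in WT 72 h (15.5 ± 3.24), and ZEB2 lowest in mut solvent (2.04 ± 0.375) and highest in WT 24 h (6.63 ± 1.78), with all 4 mut groups below the 4 WT groups. TWIST1 was lowest in WT 24 h (11.2 ± 1.12) and highest in mut solvent (15.9 ± 1.38), and TWIST2 lowest in mut solvent (22.2 ± 3.40) and highest in mut 72 h (34.7 ± 4.45).

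For each gene the 3 others with the most similar pattern were found by the Pearson correlation of log2(CPM + 0.1) over the 32 libraries, which share clones and series. For SNAI1 they were PMEPA1 (0.965), a TGFβ feedback gene that went from 84.2 to 909 CPM in WT cells by 24 h, DNAJB2 (0.965) and P4HA2 (0.957). For SNAI2 they were PLEK2 (0.974), IL11 (0.966), a cytokine at 1.82 CPM in WT solvent and 26.7 CPM at 24 h, and ITGB6 (0.965), an integrin subunit at 144 and 1130 CPM. For ZEB1 they were FADS1 (0.917), SEC23A (0.913) and QSOX1 (0.905), and for ZEB2 IL31RA (0.913), TMEM176B (0.909) and STXBP5 (0.908). TMEM176B had a mean of 0.575 CPM in mut and 4.18 CPM in WT solvent. It was picked for its likeness to ZEB2 over these same libraries, so a shared direction is part of the choice. For TWIST1 the values were lower, with MCEE (0.823) and TMEM203 (0.782), and for TWIST2 they were FSCN1 (0.878), an actin bundling gene, PTK7 (0.820) and S100A13 (0.812). Within groups the correlations of the genes named here were 0.603 to 0.866, the lowest for PTK7 and the highest for FADS1.

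Genes that act with or against the 6 factors were followed in lists. HAND1, HAND2, USP27X, SCRT1, GRHL2, ELF5, MIR200CHG and ZEB2-AS1 were not analysed here. Counts over a list stand beside the background of 52.2% of all genes in WT and 24.1% in mut cells at 72 h, in either direction. Most of these calls were lower: of 14865 genes, 5705 fell and 2061 rose in WT cells, and 2423 fell and 1161 rose in mut cells. Medians stand beside -0.19 and -0.09 on the log2 scale for all genes. Of 26 genes known as repression targets, 25 were tested, and 14 fell and 1 rose in WT cells at 72 h (median -0.63). In mut cells 14 fell and 0 rose (median -0.60). With TMM factors 10 fell and 3 rose in WT cells, and 11 fell and 1 rose in mut cells. TJP3, a tight junction gene, fell by 2.97 on the log2 scale, MAL2 fell by 2.18 and MUC1 fell by 1.85 in WT cells (adjusted p = 1.80e-04, 4.51e-07 and 6.75e-04). CDH1 and EPCAM were among the genes that fell in both. In solvent 6 of the 25 were higher in mut than in WT cells and 0 lower, beside 12.7% of all genes, with TJP3 at 17.5 against 7.98 CPM and MUC1 at 458 against 213 CPM. At 72 h 8 were higher and 2 lower, where 39.2% of all genes were called, and 0 of 25 were called in the interaction by limma-voom, where 12.3% were.

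Of 10 tested mesenchymal genes, 9 rose in WT and 9 in mut cells at 72 h (median 1.94 and 1.37). FN1 (fibronectin) went from 741 to 12900 CPM in WT and from 577 to 6590 CPM in mut cells, and MMP2 from 4.31 to 58.2 and from 9.92 to 30.9 CPM. At 72 h 7 of 10 were lower in mut than in WT cells (39.2% of all genes were called), and MMP2 alone of the 10 was called in the interaction (adjusted p = 0.00275, with 12.3% of all genes called). FN1 was not among those 7, at -0.997 ± 0.491 (log2, SE, limma-voom adjusted p = 0.11), and its interaction had an adjusted p of 0.698. Its solvent libraries varied widely, with an SD of 548 CPM in WT and 560 CPM in mut cells. Of 15 tested epithelial opponents, transcription and splicing factors that maintain the epithelial state, 10 fell in WT and 9 in mut cells and 0 rose (median -0.53 in both). With TMM factors 0 rose and 9 fell in WT cells, and 2 rose and 7 fell in mut cells. EHF fell from 39.1 to 2.66 CPM in WT cells, GRHL3 from 67.1 to 12.1 CPM and GRHL1 from 6.16 to 2.51 CPM. In mut cells EHF went from 60.8 to 4.49 CPM and GRHL3 from 66.1 to 18.3 CPM.

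Of 16 tested other EMT transcription factors, 6 rose and 1 fell in WT cells, and 5 rose and 0 fell in mut cells (median 0.16 in both), with 6 and 0 in WT cells under TMM factors. SOX4 rose from 48.5 to 167 CPM in WT and from 39.4 to 70.3 CPM in mut cells. In the interaction at 72 h, 3 of the 16 were called, beside 12.3% of all genes, with SOX4 (adjusted p = 0.00131) and HIF1A lower and HMGA2 higher. ETS1 rose from 54.5 to 119 CPM and FOXQ1 from 1.86 to 4.16 CPM in WT cells. Of 6 tested TWIST partners and antagonists, ID3 rose by 0.87 and TCF12, an E protein, by 0.27 on the log2 scale, and ID1 fell by 0.41 (adjusted p = 4.28e-06, 9.57e-04 and 0.0134), while in mut cells TCF3, TCF4 and ID3 rose. With TMM factors the split in WT cells was 4 higher and 0 lower.

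Among 17 corepressors, which SNAI and ZEB proteins recruit, 2 rose and 13 fell in WT cells (median -0.25), and 1 rose and 2 fell in mut cells. This split followed the scaling: with TMM factors 3 rose and 6 fell in WT cells, and 1 rose and 0 fell in mut cells. LOXL2, an oxidase that stabilises SNAI1, rose from 35.8 to 54.0 CPM, while EZH2, a histone methyltransferase, fell from 38.0 to 25.1 CPM and SUV39H1 from 29.3 to 21.1 CPM in WT cells. Of 13 tested genes that control SNAIL stability, 1 rose and 4 fell in WT cells (2 and 2 with TMM factors), and 0 rose and 2 fell in mut cells (0 and 0 with TMM factors). LATS2, a kinase that phosphorylates SNAI1, rose by 0.54, and FBXL5, a ubiquitin ligase subunit that targets it, fell by 0.45 (adjusted p = 4.98e-05 and 0.00261). LATS2 and COPS2 were called in the interaction at 72 h in opposite directions, LATS2 lower and COPS2 higher (adjusted p = 0.0185 and 0.0386, with 12.3% of all genes called), and with TMM factors 0 genes of the list were called higher and 1 lower.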

How the data were processed

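RNA was sequenced from 32 libraries of MCF10A clones. The authors prepared unstranded libraries, trimmed reads with Trimmomatic, and aligned and counted them with STAR on GRCh38, and the deposited values are raw read counts per Ensembl gene. Of 17788 genes, 17763 were named from GENCODE 44. Library totals were 39702412 to 54651906 counts, and 3 counts, the floor used here, correspond to 0.0549 to 0.0756 CPM. The floor covers counting error only, while standard errors come from the spread between libraries.

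Groups came from the sample labels. Genes were kept by edgeR's filterByExpr (count of at least 10, total of at least 15), which left 14865. As in the study, limma-voom (limma 3.58.1, R 4.3.3) was fitted to all 8 groups with library-size normalisation, 17 comparisons were made, and p-values were adjusted by Benjamini-Hochberg over all tested genes, with a threshold of 0.05. All 6 genes passed the filter, so the exact test planned for genes below it was not needed. Alternatives were TMM factors, edgeR's quasi-likelihood test (4.0.16), DESeq2 (1.42.0), other filters, the groups of a comparison alone, blocks, sums of the replications of a clone, and leaving out libraries. The fits were also run on simulated counts for WT at 72 h against solvent. There limma-voom recovered 73% of 100 changes of 2-fold and 88% of 100 changes of 4-fold, with 6 false calls. Smaller changes were not simulated, and the libraries were drawn independently, without series.

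Libraries of 1 series come from the same clone and replication per the labels. Their deviations from group means had a mean correlation of 0.375 over 48 pairs, with 46 pairs over 0.1, against 0.017 for the same clone in the other replication and -0.187 between clones. No 2 libraries of a group agreed within sampling noise (lowest chi-square per degree of freedom 11.6). Named were the 6 genes, the 3 genes most correlated with each (mean of at least 1 CPM), and the 3 largest changes called in WT cells at 72 h in each list. Some genes that this rule names are not reported here. CDH1, EPCAM, TCF3, TCF4, HMGA2 and HIF1A were named outside it, after their values were seen. The members and lists were chosen with earlier results of these data known.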

Additional observations from a re-analysis of the deposited data

Results flagged for a closer look

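In 8 of 48 groups of 4 libraries, 1 library stood far from the other 3. In these groups the gap to the nearest library was 0.833 to 0.941 of the range on the log2 scale. Chance alone would give about 1 in 20 only for independent groups of normally distributed values. These 48 are the 6 genes in the same 8 sets of libraries and are not independent, and an excess was not tested. In series 27-2, SNAI1 in WT solvent was 0.778 CPM against 0.21 to 0.227 CPM, ZEB1 in WT solvent was 15.5 CPM against 7.79 to 8.16 CPM, and TWIST1 in WT at 72 h was 17.0 CPM against 11.7 to 12.5 CPM. In series 1-2, SNAI1 in mut at 6 h was 1.18 CPM against 2.94 to 3.27 CPM, SNAI2 in mut at 24 h was 177 CPM against 223 to 231 CPM, and ZEB2 in mut at 24 h was 2.51 CPM against 4.03 to 4.17 CPM. ZEB2 in library WT 6 h 27-1 was 2.34 CPM against 5.45 to 6.04 CPM, and in library mut 72 h 65-2 it was 1.99 CPM against 3.67 to 4.01 CPM.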

How the results depend on the processing

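Of the 30 called changes of single genes, 306 values under other settings stayed called in the same direction and 15 were no longer called, and on leaving out single libraries 207 stayed and 33 were lost. Where a count or direction changed, the cause was not tested. Depth limits SNAI1 in solvent, which had 9 counts in its lowest library. The canonical-transcript length was chosen after seeing the data.

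With series fitted as the replicate block, the number of the 6 genes called was 4 in WT at 6 h, 5 in mut at 72 h, 4 in WT from 6 to 24 h, 3 in mut from 6 to 24 h, 1 in the interaction at 24 h and 2 at 72 h. In mut against WT cells in solvent it was 1 by edgeR, DESeq2, the groups alone and clone sums. In the interaction at 24 h it was 1 by edgeR, DESeq2, a mean count of 50 and the groups alone. In the interaction at 72 h it was 1 by edgeR, DESeq2, the groups alone and without series 27-2, and 2 with a mean count of 50 and without series 1-2. It was 5 in WT at 72 h by edgeR and DESeq2, 1 in WT from 6 to 24 h and in mut against WT at 6 h without series 27-2, and in mut from 6 to 24 h 2 with the groups alone and 0 on clone sums. Leaving out 1 library gave counts of 3 to 6 in WT at 24 h, 1 to 3 in WT and 0 to 1 in mut from 6 to 24 h, 0 to 1, 1 to 4 and 1 to 3 in mut against WT in solvent, at 6 h and at 72 h, and 0 to 1 and 0 to 2 in the interaction at 24 and 72 h. The share of all genes called moves with the setting, for the interaction at 72 h from 12.3% in the main fit to 23.5% with the series block. That share is not given for the other settings, so these counts are no result about the 6 genes.

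Changes that were not called turned direction as follows (log2). ZEB1 in WT at 6 h was -0.001 with the replication block and -0.008 with the series block. By TMM, edgeR and DESeq2, TWIST1 was 0.006, 0.014 and 0.029 in WT at 72 h, 0.005, 0.011 and 0.007 in WT from 6 to 24 h, and 0.018, 0.023 and 0.027 in mut from 6 to 24 h. TWIST1 in mut against WT at 72 h was -0.002 by DESeq2, and its interaction at 72 h was 0.118 without series 27-2 and 0.069 without series 1-2. SNAI2 in mut from 24 to 72 h was -0.031 without series 1-2, and its interaction at 72 h was 0.003 on clone sums. The ZEB2 interaction was 0.140 at 6 h without series 1-2, and -0.026 and -0.017 at 24 h by edgeR and DESeq2.

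Leaving out 1 library gave ranges across 0 for mut from 24 to 72 h (SNAI1 -0.193 to 0.037, ZEB2 -0.324 to 0.072), TWIST1 in mut (-0.062 to 0.041) and TWIST2 in WT (-0.053 to 0.111) from 6 to 24 h, ZEB1 in WT at 6 h (-0.205 to 0.240), and the interaction at 6 h (ZEB1 -0.430 to 0.016, ZEB2 -0.366 to 0.093, TWIST2 -0.162 to 0.014), 24 h (ZEB1 -0.348 to 0.044, ZEB2 -0.102 to 0.270) and 72 h (SNAI2 -0.120 to 0.080, TWIST1 -0.086 to 0.117).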
